A study of Mus musculus with 24 samples.

Results

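Astrocytes, the star-shaped glial cells that clear transmitter and buffer ions and water around neurons, were followed here through 10 of their genes in the mouse nucleus accumbens. The genes were Slc1a2, Slc1a3, Glul, Gja1, Gjb6, Aqp4, Gfap, S100b, Aldh1l1 and Sox9, chosen by symbol and matched to Ensembl identifiers in a table of 38293 genes. All 10 were found and all 10 passed the filter on low counts, among 18593 genes tested. The study asked how subchronic variable stress (SCVS), a short course of foot shock, tail suspension and restraint in alternation, alters transcription in the accumbens of each sex. The 12 mRNA libraries fell into 4 groups of 3: unstressed males (NSM), stressed males (SM), unstressed females (NSF) and stressed females (SF). All mice were C57BL/6J and labelled as 9 weeks old, with no transgene or surgery named, and the females were taken in estrus or proestrus. Each library was made from the bilateral punches of 5 mice, 10 punches in all, so a library was a pool and differences between single mice could not be seen.

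The products of these genes do the daily work of the astrocyte. Glutamate released at synapses is taken up by GLT-1 (Slc1a2) and GLAST (Slc1a3) and turned into glutamine by glutamine synthetase (Glul). Connexin 43 (Gja1) and connexin 30 (Gjb6) build the gap junctions that join astrocytes into a network, and aquaporin-4 (Aqp4) is the water channel of the endfeet on blood vessels. Gfap encodes an intermediate filament that rises in reactive astrocytes, S100b a calcium-binding protein, Aldh1l1 a folate enzyme used as a pan-astrocyte marker, and Sox9 a transcription factor of the astrocyte lineage. In bulk tissue fewer cells of a type and less RNA per cell cannot be told apart.

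The results turned on Gjb6, read against Gja1, its partner at the astrocyte junction, so the 250 bases before the annotated start of each gene are given 5′ to 3′ from RefSeq, build GRCm38.p6. The Gjb6 window lies on the minus strand at chr14:57133612-57133861 and the Gja1 window on the plus strand at chr10:56377050-56377299. Promoters of 8 of the 10 genes were matched in that table.
Gjb6 promoter: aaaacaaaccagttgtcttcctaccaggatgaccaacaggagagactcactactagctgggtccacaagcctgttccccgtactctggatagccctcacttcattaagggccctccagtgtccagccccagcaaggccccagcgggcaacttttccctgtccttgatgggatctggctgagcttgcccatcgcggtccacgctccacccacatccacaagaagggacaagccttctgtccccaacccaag
Gja1 promoter: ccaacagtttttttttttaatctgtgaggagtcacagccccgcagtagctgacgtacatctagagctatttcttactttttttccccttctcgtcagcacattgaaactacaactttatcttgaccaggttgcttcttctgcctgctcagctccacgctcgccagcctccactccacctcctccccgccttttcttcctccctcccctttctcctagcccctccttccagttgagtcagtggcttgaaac
Both windows were searched on both strands for AGAACA (a short site of the glucocorticoid receptor), TATAAA (the TATA box) and GGGCGG (the GC box of Sp1), none of which overlap each other in their letters. Neither window held any of these motifs, so no base is in capitals. Of 32851 mouse promoter windows of the same length, 16.1% held AGAACA, 12.4% held TATAAA and 32.7% held GGGCGG. The GC content was 56.8% in the Gjb6 window and 50.0% in the Gja1 window, beside a median of 52.4% over all windows.

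Total reads per library ranged from 41076780 to 60867747, and the 10 astrocyte genes had between 744 (Gjb6) and 184684 (Slc1a2) reads in a library. The tissue label was checked against markers of striatal medium spiny neurons, which do not single out the accumbens. The dopamine receptor genes Drd1a and Drd2 and the gene Ppp1r1b lay at 272 to 383, 130 to 160 and 760 to 1006 CPM (reads per 1000000 reads, scaled between libraries). Markers of cortical glutamatergic neurons were uneven between libraries, with summed levels of 32.4 to 52.7 CPM in NSM, 73.2 to 225 in SM, 48.9 to 395 in NSF and 69.7 to 140 in SF. Neurod6, one of them, ranged from 0.102 to 12.4 CPM. One NSM library held choroid plexus markers at a summed 110 CPM, against 33.6 to 45.0 CPM in all libraries of the other 3 groups.

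Per length of exon, in RPKM (CPM divided by the exon length in kilobases, mean over 12 libraries), the order of the astrocyte genes was led by glutamate handling. Glul stood at 360 ± 13.2 RPKM (SD, n = 12) and Slc1a2 at 223 ± 20.2 RPKM. Slc1a3 at 79.3 ± 2.99, Gja1 at 65.8 ± 5.06 and S100b at 46.1 ± 4.06 RPKM formed the middle of the order. Aqp4 at 16.8 ± 1.31, Gjb6 at 10.7 ± 1.95, Aldh1l1 at 9.52 ± 0.611, Gfap at 7.42 ± 1.20 and Sox9 at 6.91 ± 0.742 RPKM were the lowest. Among the last 4 genes each neighbour in the order lay within 1 SD of the next or overlapped its range, whereas the ranges of Glul, Slc1a2 and Slc1a3 were apart. The ratio of the highest to the lowest library was 1.80 for Gjb6, more than the 1.57 of Gfap and the 1.12 of Slc1a3, which varied least.

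**Figure D1:**
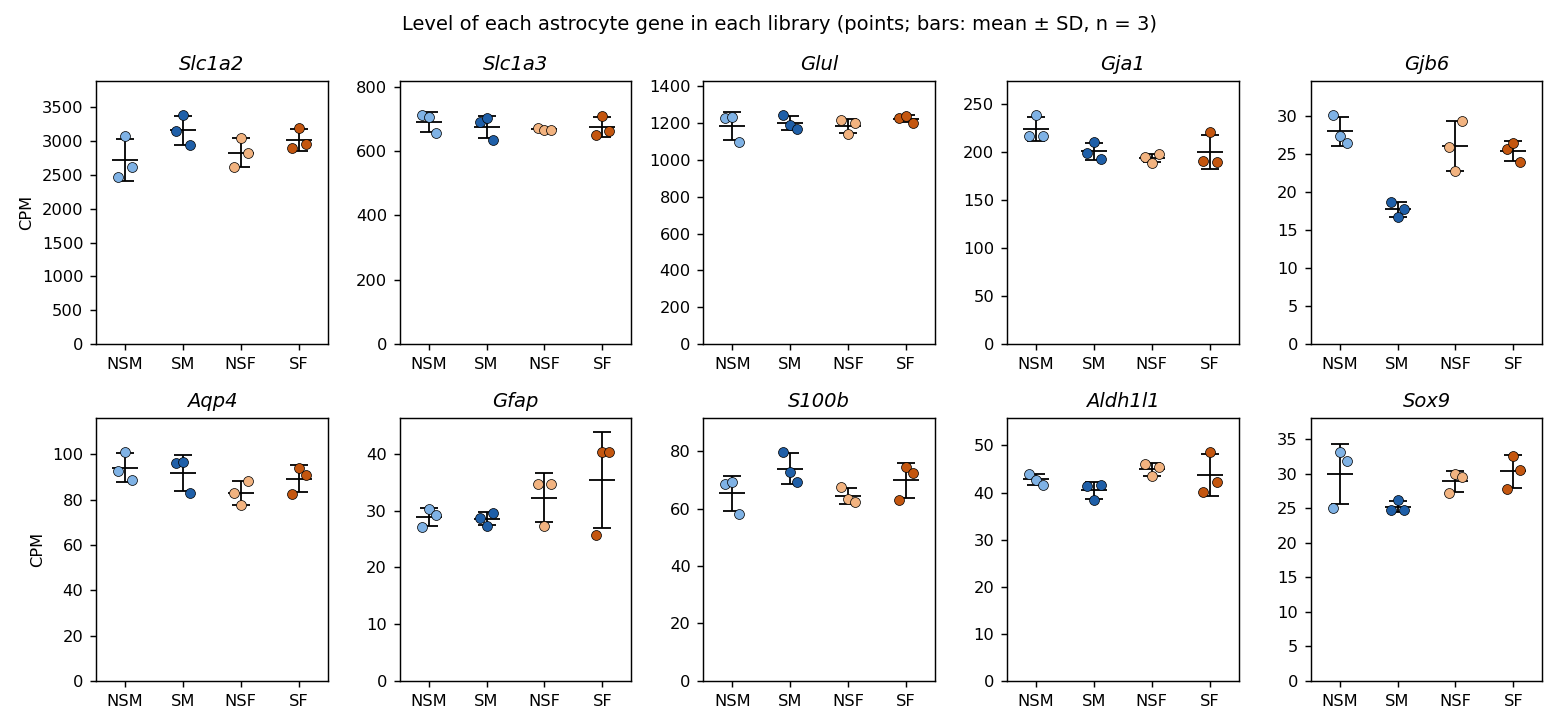
Level of each of the 10 astrocyte genes (CPM, vertical axes from 0) in the 3 libraries of each group on the horizontal axis, with points for libraries and bars for the mean ± SD. The 3 SM points of Gjb6, from 16.8 to 18.7 CPM, lie below all 9 points of the other groups, and 1 SF library holds Gfap at 25.7 CPM beside 40.3 in the other two.

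Stressed males had less Gjb6 mRNA than unstressed males. The gene (ENSMUSG00000040055, chromosome 14, 57742140 to 57752448 on the minus strand in build NCBIM37) codes for connexin 30, and no other annotated gene overlaps it. Its level in the 3 NSM libraries was 30.1, 27.3 and 26.5 CPM, and in the 3 SM libraries 18.7, 16.8 and 17.9 CPM. All SM libraries were therefore below all NSM libraries. The mean fell from 28.0 ± 1.88 to 17.8 ± 0.987 CPM (SD, n = 3 per group), a log2 fold change of -0.66 (SE 0.09, 95% interval -0.85 to -0.47), or a decrease by 36.6%. The p-value was 3.78e-06 and the adjusted p 0.00372 (limma on voom weights, Benjamini-Hochberg over 18593 genes). The study's own call, an unadjusted p under 0.05 with a change of at least 1.3-fold, was met in males by 6.44% of the genes tested, 2.36% higher and 4.08% lower, and by Gjb6 alone among the 10 astrocyte genes. At an adjusted p under 0.05, 3.32% of all genes and again only Gjb6 passed. With any 1 of the 12 libraries left out, the log2 fold change stayed between -0.69 and -0.59 and the adjusted p between 0.00181 and 0.0342. With the mean level of the cortical neuron markers as a term in the model the log2 fold change was -0.77 and the adjusted p 0.0543, the highest over the 12 other settings tried, in which it went down to 1.04e-08.

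In females Gjb6 stood at 25.9, 22.8 and 29.4 CPM in NSF and at 25.7, 26.5 and 23.9 CPM in SF. The 2 groups overlapped, with means of 26.0 ± 3.28 and 25.4 ± 1.33 CPM (SD, n = 3 per group). The log2 fold change was -0.02 (95% interval -0.20 to 0.16, adjusted p = 0.979 by limma), so a change of the size measured in males lay outside the interval. The difference between the sexes in the response, female minus male, was 0.64 on the log2 scale (SE 0.12, 95% interval 0.37 to 0.90), with an unadjusted p of 0.000147 by limma. After adjustment this interaction did not pass in limma (adjusted p = 0.125) and passed in DESeq2 (adjusted p = 0.00215). DESeq2 was the only 1 of 11 other settings in which it passed. The highest adjusted p of these was 0.750, by limma with the cortical marker term. In limma 5 genes of the whole table, 0.0269%, had an adjusted p under 0.05 for the interaction, and 4.42% met the call on p and fold, which Gjb6 did.

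The sexes were also compared within each condition. Between unstressed mice Gjb6 was 0.12 lower in females on the log2 scale (a log2 fold change of -0.12, 95% interval -0.30 to 0.06, adjusted p = 0.529). Between stressed mice it was higher in SF than in SM in every library, by a log2 fold change of 0.52 (SE 0.09, adjusted p = 0.0438), or 1.43-fold. That adjusted p rose above 0.05 under several scalings and filters, from 0.0567 with DESeq2 size factors to 0.0723 with library size only (0.000115 at the lowest, by DESeq2), and from 0.0746 to 0.357 without the second NSM, any SM, the first NSF, the second SF or the third SF library. The call on p and fold, met by 5.55% of genes in this comparison, held for Gjb6 throughout.

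**Figure D2:**
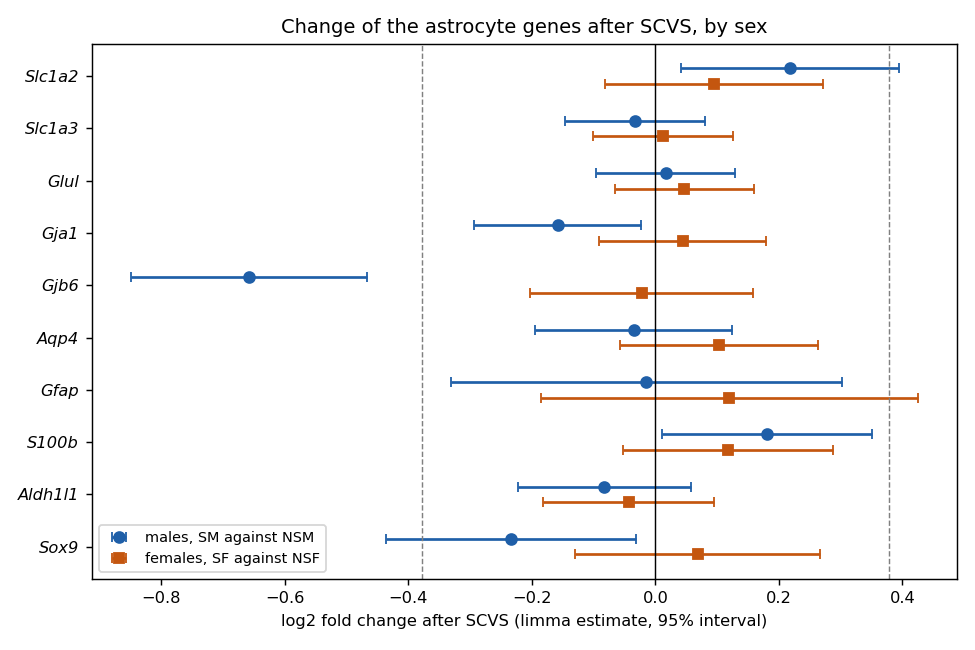
Log2 fold change after SCVS (horizontal axis) for each astrocyte gene, with limma's 95% interval, circles for males and squares for females; the dashed lines mark a 1.3-fold change. Only Gjb6 in males, at -0.66, has an interval wholly beyond a dashed line.

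A ratio within a library does not depend on the scaling between libraries. Per length, the Gjb6 level was 19.1%, 15.7% and 16.8% of the Gja1 level in the 3 NSM libraries and 12.9%, 10.9% and 12.7% in the 3 SM libraries. It was 18.2%, 16.6% and 20.4% in NSF and 18.5%, 16.5% and 17.3% in SF. The SM libraries were apart from the NSM libraries and the female groups overlapped. The means were 17.2% ± 1.70 in NSM against 12.2% ± 1.11 in SM (SD, n = 3 per group), with a two-sided exact permutation p of 0.1, the smallest that 3 against 3 allows. In females they were 18.4% ± 1.90 and 17.4% ± 1.03, with an exact permutation p of 0.6. Against the mean log2 level of the other 9 astrocyte genes, Gjb6 lay at -1.61 ± 0.13 in NSM and -2.25 ± 0.09 in SM, and at -1.70 ± 0.15 in NSF and -1.79 ± 0.13 in SF.

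**Figure D3:**
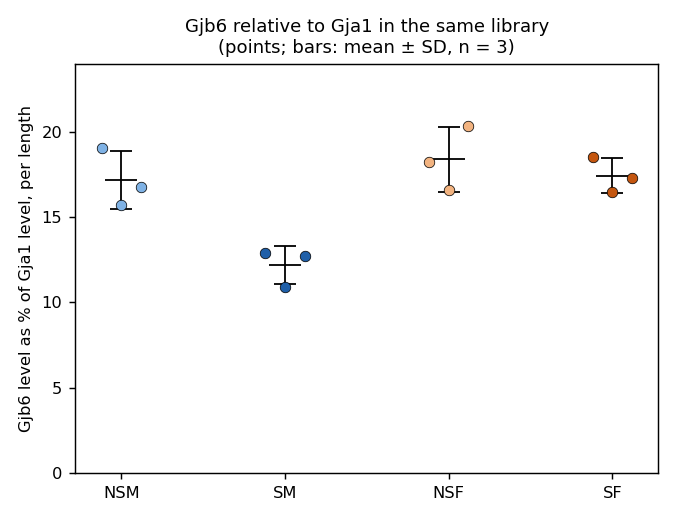
Gjb6 level as a percent of the Gja1 level per exon length (vertical axis from 0) in the 12 libraries by group, with points for libraries and bars for the mean ± SD. SM libraries lie between 10.9% and 12.9%, below the lowest of the other groups at 15.7%.

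Gja1, the more abundant of the astrocyte connexins (chromosome 10, 56097106 to 56110225), did not pass the test in stressed males. It measured 216, 238 and 217 CPM in NSM and 198, 210 and 192 CPM in SM, so the groups did not overlap. The log2 fold change was -0.16 (95% interval -0.29 to -0.02), with an unadjusted p of 0.025 and an adjusted p of 0.170 by limma. Unstressed females were lower than unstressed males too, at 193 ± 4.61 against 224 ± 12.3 CPM (SD, n = 3 per group), a log2 fold change of -0.21 with an adjusted p of 0.151 by limma and of 0.0479 by DESeq2, within 0.0479 to 0.951 over 11 other settings. In females after SCVS the Gja1 log2 fold change was 0.04 (95% interval -0.09 to 0.18).

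The aquaporin gene Aqp4 lay between 77.8 and 101 CPM in all libraries, and NSM and SM overlapped (log2 fold change -0.04, 95% interval -0.20 to 0.12). Its levels in the 3 NSF libraries, 77.8 to 88.3 CPM, were all below those in the NSM libraries, 88.5 to 101 CPM. That difference had a log2 fold change of -0.18, an unadjusted p of 0.0307 and an adjusted p of 0.272 by limma, and did not pass.

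Of the genes for glutamate handling, none met the call in either sex. Slc1a2, the main glutamate transporter of the forebrain, measured 2470, 3074 and 2619 CPM in NSM and 3146, 3379 and 2948 CPM in SM. The groups overlapped, and its log2 fold change was 0.22 (95% interval 0.04 to 0.39), with an unadjusted p of 0.019 and an adjusted p of 0.151 by limma. In females it was 0.09 (95% interval -0.08 to 0.27). Slc1a3 stayed within 635 to 711 CPM over the 12 libraries, with log2 fold changes of -0.03 in males and 0.01 in females. Glul stayed within 1098 to 1241 CPM, with 0.02 in males and 0.05 in females. For both genes the 95% intervals reached no further than a log2 change of 0.16 in either direction. The library kit does not mark strand, and exons of Slc1a2, Glul and Aldh1l1 share 189, 67 and 499 bases with genes on the opposite strand (Gm13872, 5830403L16Rik and Gm15756), whose reads cannot be told apart over those bases.

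The genes of cell structure and identity did not meet the call after SCVS either. Gfap had a log2 fold change of -0.01 in males (95% interval -0.33 to 0.30), from 28.9 ± 1.63 to 28.6 ± 1.17 CPM (SD, n = 3 per group). In females it was 0.12 (95% interval -0.19 to 0.43), and the SF libraries were widely spread at 25.7, 40.3 and 40.3 CPM. These were the widest intervals of the 10 genes. S100b measured 65.3 ± 6.16 CPM in NSM and 73.9 ± 5.28 CPM in SM (SD, n = 3 per group) without overlap of the libraries, a log2 fold change of 0.18 with an adjusted p of 0.206 by limma, which did not pass. Aldh1l1 also did not overlap between NSM (41.7 to 44.0 CPM) and SM (38.4 to 41.6 CPM), yet its log2 fold change was only -0.08 (adjusted p = 0.486 by limma).

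Sox9 measured 25.0, 33.1 and 31.8 CPM in NSM and 24.7, 26.2 and 24.7 CPM in SM. One NSM library lay among the SM libraries. The log2 fold change was -0.23 (95% interval -0.44 to -0.03), with an unadjusted p of 0.027 and an adjusted p of 0.176 by limma. Without that NSM library it was -0.35 with an adjusted p of 0.0214, and over the 12 fits without 1 library the adjusted p reached 0.466. Stressed females were higher than stressed males in every library (log2 fold change 0.26, adjusted p = 0.188), which did not pass.

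Counted together, 7 of the 10 astrocyte genes lay below 0 in males (52.7% of all genes), with a median log2 fold change of -0.03 beside -0.01 over all genes tested. Without 1 library that median lay between -0.068 and 0.014, above 0 only without the second NSM library. In females 2 of 10 lay below 0 (51.6% of all genes), with a median of 0.06 beside -0.0039 over all genes, and of 0.017 to 0.10 without 1 library, the lowest without the second SF and the highest without the first SF library. At an unadjusted p under 0.05, 2 of the 10 were higher and 3 lower in males, beside 21.5% of all genes, 9.93% higher and 11.5% lower. In females none of the 10 passed an unadjusted p under 0.05 in limma, edgeR or DESeq2, beside 4.23% of all genes in limma, and none met the call, beside 1.73%. The groups did not overlap for 4 of the 10 genes in males (23.0% of all genes) and for 0 of 10 in females (11.3% of all genes). Between unstressed females and males none met the call, beside 5.31% of genes, and 2 did not overlap, beside 19.4%. Between stressed females and males 2 did not overlap, Gjb6 and Sox9, beside 20.5%.

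Within the groups the astrocyte genes varied from library to library mostly in the same direction. Over 12 libraries, with the group means removed, the median correlation of the 45 pairs was 0.41, from -0.38 to 0.79, and 40 pairs were above 0. The pairs share their libraries, so these values are a description. Aqp4 followed the mean of the other 9 genes most closely (r = 0.85), then Gja1 (0.81) and Slc1a3 (0.75). Gjb6 and Sox9 followed it least, at 0.24 each. The second SF library held all 10 genes above the mean of its group and the first SF library 2 of 10.

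**Figure D4:**
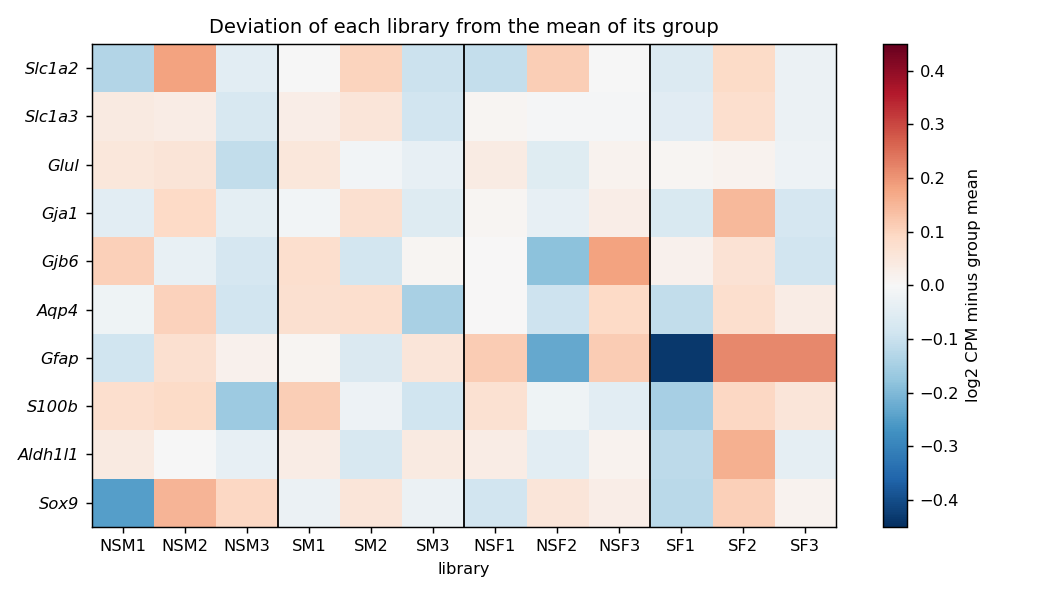
Deviation of each library (columns, in their groups) from the mean of its group for each astrocyte gene (rows), in log2 CPM, red for above and blue for below. In the second SF library all 10 genes are above the mean, and the darkest cell, at -0.43, is Gfap in the first SF library.

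The genes outside all lists whose deviations were most like the mean profile of the 10 genes were sought among 12965 genes with a mean of at least 100 reads. They were Rfxap (r = 0.94), Ednrb (0.93), Ezr (0.92), Tlr3 (0.92), Zfp367 (0.91), Tram1 (0.91), Cyp4f14 (0.90), Nudcd1 (0.89), Anxa5 (0.89) and Scarb2 (0.89). The median over those 12965 genes was 0.07. Over the same libraries the mean profile of 33 other astrocyte genes had r = 0.90 with that of the 10. Oligodendrocyte markers had 0.55, microglia markers 0.51 and endothelial markers 0.43, so the shared variation was not particular to astrocyte genes. Cortical glutamatergic neuron markers had -0.07, and medium spiny neuron markers had the lowest value of the lists, -0.20.

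The other 33 astrocyte genes, among them the potassium channel Kcnj10 and the adhesion protein Hepacam, were all tested. In males 0 met the call upward and 1 downward (2.36% and 4.08% of all genes), with a median log2 fold change of 0.04. The one was Slc25a18, a mitochondrial glutamate carrier, at 21.1 CPM in NSM and 14.8 CPM in SM (log2 fold change -0.52, adjusted p = 0.0768 by limma). In females 1 met the call upward and 0 downward (1.73% of all genes in either direction), with a median of 0.04. It was Agt, the angiotensinogen gene, named here after its values were seen, at 4.44 CPM in NSF and 7.03 CPM in SF (log2 fold change 0.59, adjusted p = 0.948). In males Agt went the other way, from 5.28 to 3.46 CPM without overlap (log2 fold change -0.61, adjusted p = 0.258 by limma), and did not meet the call.

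Of 9 other connexin and pannexin genes none met the call in males or females in limma (6.44% and 1.73% of all genes). In males 1 passed an unadjusted p under 0.05 (21.5% of all genes). That gene was Gjc3, a connexin of myelinating glia, at 53.8 CPM in NSM and 60.1 CPM in SM (log2 fold change 0.16, adjusted p = 0.155). Gjb2, the connexin 26 gene that lies 18600 bases from Gjb6 on the same strand, was chosen for its position and measured 2.41 CPM in NSM and 2.24 CPM in SM (log2 fold change -0.10, adjusted p = 0.614). Per length Gja1 led the family at 65.8 RPKM, followed by Gjc3 at 16.4, Panx2 at 13.6 and Gjb6 at 10.7 RPKM.

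Of 13 genes of reactive astrocytes 12 were tested, Cxcl10 being too low. In males 0 met the call upward and 2 downward, beside 2.36% and 4.08% of all genes. Hspb1, a small heat shock protein gene, fell from 3.77 to 2.00 CPM (log2 fold change -0.90, adjusted p = 0.0125 by limma), and in females its log2 fold change was 0.06. In males the adjusted p of Hspb1 was 0.0687 with the cortical marker term and up to 0.0832 without the third NSM or the second SM library. The other was Lcn2, named after its values were seen, at 0.794 ± 0.630 and 0.0904 ± 0.0182 CPM (SD, log2 fold change -2.31, adjusted p = 0.190). It averaged 15.1 reads per library, and the NSM and SM libraries overlapped. The largest interaction (female minus male) on this list was 0.96, so Lcn2 lay below 0 in females too, where no gene of the list met the call. Vim, the filament partner of Gfap, had a log2 fold change of -0.09 in males and 0.05 in females.

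The 12 other genes of glutamate and glutamine transport held 1 call upward and 1 downward in males, beside 2.36% and 4.08% of all genes. Slc1a6, a glutamate transporter of neurons, had a log2 fold change of -0.38 (adjusted p = 0.0701 by limma), close to the 1.3-fold limit. It met the call in 8 of 12 other settings and in 7 of 12 fits without 1 library, failing without the first NSM, the second SM, the first NSF, the third NSF or the second SF library. The upward call was Slc17a7, the vesicular transporter of cortical neurons, named after its values were seen and also 1 of the cortical markers above, at 10.8 CPM in NSM and 107 CPM in SM. None of 6 genes that anchor or accompany aquaporin-4 met the call in either sex in limma. In males 1 was below an unadjusted p of 0.05, beside 21.5% of all genes. All 6 lay below 0 in males, with a median of -0.10, and the one with the smallest p was Dmd, the dystrophin gene, at -0.12 (adjusted p = 0.222).

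Among 13 astrocyte transcription factors 0 met the call upward and 1 downward in males, beside 2.36% and 4.08% of all genes. It was Zbtb20, named after its values were seen, at 335 CPM in NSM and 251 CPM in SM (log2 fold change -0.42, adjusted p = 0.0644 by limma). The largest interaction (female minus male) on this list was 0.25, so Zbtb20 lay below 0 in females too. There the lowest log2 fold change of the list was -0.39 and no gene of the list met the call. Id3, a helix-loop-helix inhibitor, was higher in SF than in SM, at 19.3 against 11.6 CPM (log2 fold change 0.74, adjusted p = 0.0475), where 0.145% of all genes had an adjusted p under 0.05. The adjusted p of Id3 was above 0.05 in 6 of 11 other settings, up to 0.0783. It was also above 0.05, up to 0.363, without the second NSM, any SM, the second or the third NSF, or the second or the third SF library. By the same limit on the interaction, Id3 was also higher in NSF than in NSM, where the highest log2 fold change of the list was 0.56. The higher Id3 estimate in females was therefore not particular to stressed mice. Between unstressed mice, however, no gene of the list had an adjusted p under 0.05 by limma.

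**Figure D5:**
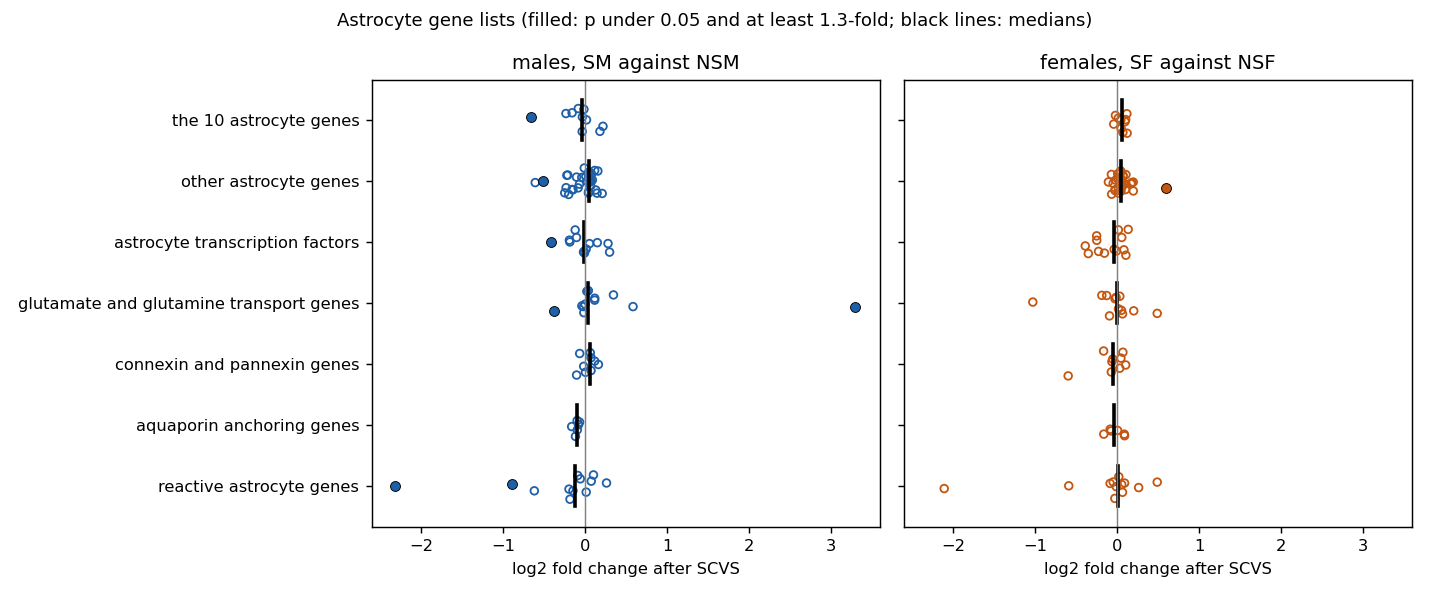
Log2 fold change after SCVS (horizontal axes) of each tested gene of the astrocyte lists (rows), in males and in females, with filled points for genes that met the call on p and fold and black lines for the medians. The medians of all lists lie between -0.12 and 0.06, and Gjb6, at -0.66 in males, is the 1 filled point of the 10 astrocyte genes.

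Markers of other cell types also differed between NSM and SM, in both directions. Of 8 cortical glutamatergic neuron markers 2 met the call as higher in SM, beside 2.36% of all genes, with a median log2 fold change of 2.52. In females none met it, beside 1.73%, and all 8 lay below 0 (median -0.86). For the interaction 6 of 8 met the call as lower, beside 4.42% of all genes in either direction (median -3.48). Between NSF and NSM 5 met it as higher in NSF, beside 5.31% in either direction. Of all genes, 3.32% had an adjusted p under 0.05 in males and 6.44% met the call, while 9.93% were higher at an unadjusted p under 0.05. At an adjusted p under 0.05, 2 of 8 oligodendrocyte markers and 2 of 8 microglia markers were higher in SM than in NSM, with summed levels of 4791 to 5313 against 5698 to 5740 CPM and of 292 to 319 against 328 to 367 CPM. Of these 2 lists 1 marker each lay below 0, and the oligodendrocyte gene Sox10 had a log2 fold change of -0.30 (adjusted p = 0.143). Of 8 endothelial markers 1 was higher and of 7 meningeal fibroblast markers 1 was lower at that threshold, with summed levels of 167 to 179 against 170 to 192 CPM and of 41.7 to 47.5 against 39.8 to 45.0 CPM. By sign alone most members of both lists went the other way. Of the 8 endothelial markers 5 lay below 0, but their median of -0.013 was close to the -0.012 of all genes. At an unadjusted p under 0.05, 2 endothelial markers were higher and 1 lower, beside 9.93% and 11.5% of all genes. Cldn5 met the call as lower (-0.45, adjusted p = 0.176 by limma). Of the 7 meningeal markers 2 lay below 0 (median 0.07). Of 6 choroid plexus markers 5 were tested, all below 0 in males, with a median of -0.57 at Otx2, which alone met the call (adjusted p = 0.137). Of 10 medium spiny neuron markers 1 lay below 0, with a median of 0.12, 3 higher at an unadjusted p under 0.05 and none meeting the call in limma. Sox10, Cldn5 and Otx2 were named after their values were seen. All 6 ependymal markers and all 7 markers of neural stem cells and neuroblasts lay below 0 in males, with none meeting the call in limma and with medians of -0.44 and -0.20. Ependymal markers summed to 16.4 to 21.6 CPM in NSM and 12.3 to 16.6 CPM in SM. Of these 6 markers 4 met the call as higher in SF than in SM, beside 5.55% of all genes in either direction. The stem cell markers summed to 146 to 151 CPM in NSM and 104 to 141 CPM in SM. The part of these markers in the lower Gjb6 level of stressed males was not tested, apart from the cortical marker term given above. The summed level of the 10 astrocyte genes was 4865 to 5553 CPM in NSM and 5208 to 5754 CPM in SM. Slc1a2 alone held a mean of 2721 CPM of the mean sum of 5110 in NSM, and 3158 of 5509 in SM. The sum therefore mostly followed Slc1a2, while 7 of the 10 genes lay below 0.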

How the data were processed

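Punches of nucleus accumbens were pooled, and the large RNA fraction was sequenced from a kit that does not mark strand. The authors aligned reads with TopHat2 to NCBIM37, and HTSeq gave reads per gene, which were deposited as whole-number counts without normalization. The 12 small RNA libraries were not used here. A gene was kept if, in some group, 80% or more of libraries had over 5 reads, and counts were scaled by TMM (edgeR 4.0.16). limma 3.58.1 was fitted to voom weights with 1 mean per group over all 12 libraries. RPKM values used exon lengths of the NCBIM37 annotation, and where a symbol had several identifiers the one with most reads was used. The script was tested on simulated data. DESeq2 1.42.0 and edgeR's quasi-likelihood test were alternatives, with other scalings, filters, weights, a replicate block, a cortical marker term and leaving out each library. Replicate libraries differed by more than counting noise. Nothing says that pools came from separate cohorts, so p-values measure the spread between pools. The members and lists were chosen with earlier results of these data known. Named were the 10 members, and of each other list the genes with an adjusted p under 0.05, or else the 1 with the smallest p in males.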

Additional observations from a re-analysis of the deposited data

Results flagged for a closer look

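The response of Gjb6 to SCVS differed between the sexes in the test of the difference itself before adjustment, not after it. The change in females minus that in males was 0.64 on the log2 scale, with an unadjusted p of 0.000147 and an adjusted p of 0.125 by limma. The direction was the same in each of the 12 fits that left out 1 library, from 0.54 to 0.72. The adjusted p was 0.0295 without the second NSF library and above 0.05 in the other 11.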

How the results depend on the processing

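The lower Gjb6 level in stressed males kept its direction and its call on p and fold in the 12 other settings and the 12 fits without 1 library, from -0.77 to -0.59 on the log2 scale. The number of the 10 genes at an adjusted p under 0.05 in males was 1, and it was 0 with the cortical marker term, 3 with a replicate block and 3 with a replicate block within sex (Gjb6, Slc1a2 and Sox9), and 1 to 2 without 1 library. For SF against SM it was 1, and it was 0 with library size only, DESeq2 size factors, quantile normalization, no filter and at least 10 reads in every library, 2 with quality weights and with the replicate block (Gjb6 and Sox9), and 0 to 2 without 1 library. For the interaction it was 0, and 1 with DESeq2 and 0 to 1 without 1 library. For NSF against NSM it was 0, and 1 (Gja1) with DESeq2. In the main fit 3.32% of all genes had an adjusted p under 0.05 in males, 0.145% for SF against SM and 0.0269% for the interaction. The shares of all genes under the other settings were not counted, so these counts cannot be set against them. With the cortical marker term Gjb6 in males had an unadjusted p of 1.43e-05 by limma. Calls on p and fold numbered 2 in place of 1 with quality weights for the interaction and for SF against SM, and 1 to 2 without 1 library. Without 1 library the median of the 10 genes lay between -0.068 and 0.014 in males, 0.017 and 0.10 in females and 0.021 and 0.14 for the interaction. Without the first SF library Gfap was higher in SF than in SM by 0.50 (adjusted p = 0.0288 by limma). The causes were not tested. Same-numbered libraries had correlations of their deviations from -0.027 to 0.32 over all genes, not all above 0.1, so the numbers were not taken as pairs and the block was kept as an alternative. Over the 10 astrocyte genes alone these were 0.44 to 0.80 between NSM and SM, 0.25 to 0.63 between NSM and NSF, -0.52 to 0.10 between NSF and SF and -0.25 to 0.22 between SM and SF. With the block Slc1a2 in males had an adjusted p of 0.0296, and of 0.0203 with the block within sex, and it was higher in SM in 3 of 3 same-numbered pairs.

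Signs turned for gene effects that met no call. With quantile normalization, Gfap for SCVS in males had 0.0084, Glul for SCVS in males had -0.081, Glul for NSF against NSM had -0.045, Slc1a2 for the interaction had 0.024, Slc1a2 for SF against SM had 7.4e-05, Slc1a2 for NSF against NSM had -0.024, Slc1a3 for SCVS in females had -0.0055 and Slc1a3 for SF against SM had 0.020. With the cortical marker term, Gfap for NSF against NSM had -0.11, Gjb6 for SCVS in females had 0.020, S100b for NSF against NSM had 0.061, Slc1a3 for SCVS in females had -0.0083, Slc1a3 for SCVS in males had 0.013, Slc1a3 for the interaction had -0.022, Slc1a3 for NSF against NSM had 0.0054 and Sox9 for NSF against NSM had 0.013. With library size only, Gja1 for SF against SM had 0.0071, Glul for SCVS in males had -0.034, Glul for NSF against NSM had -0.020, Slc1a3 for SCVS in females had -0.0061 and Slc1a3 for SF against SM had 0.0084. With edgeR, Glul for NSF against NSM had -0.0016. With DESeq2, Glul for NSF against NSM had -0.011. With DESeq2 size factors, Glul for NSF against NSM had -0.0084. With no filter, Glul for NSF against NSM had -0.0060 and Slc1a3 for SF against SM had 0.00055. With at least 10 reads in every library, Glul for NSF against NSM had -0.0051. With quality weights, Glul for NSF against NSM had -0.023 and Slc1a2 for NSF against NSM had -0.029. With only the libraries compared, Glul for NSF against NSM had -0.010. Without 1 library, effects of turned sign lay within these log2 ranges. For SCVS in females the ranges were Aldh1l1 -0.12 to 0.015, Gfap -0.0024 to 0.33, Gja1 -0.022 to 0.081, Gjb6 -0.12 to 0.069 and Slc1a3 -0.019 to 0.036. For the interaction the ranges were Aldh1l1 -0.043 to 0.10, Glul -0.012 to 0.082 and S100b -0.12 to 0.015. For SCVS in males the ranges were Aqp4 -0.072 to 0.044, Gfap -0.051 to 0.035, Glul -0.032 to 0.060 and Slc1a3 -0.065 to 0.015. For SF against SM the ranges were Aqp4 -0.12 to 0.012, Gja1 -0.088 to 0.032 and Slc1a3 -0.055 to 0.020. For NSF against NSM the ranges were Glul -0.058 to 0.029, S100b -0.10 to 0.026, Slc1a2 -0.016 to 0.15 and Sox9 -0.18 to 0.037. The sign of these effects was therefore not settled with 3 pools per group.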
